A study of Mus musculus with 2 samples.

Results

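The genes described here encode cullins, F-box proteins and RING finger proteins, most of them parts of ubiquitin ligases, in mouse retinal organoids, and the measurement is the fraction of RNA molecules scored as carrying N6-methyladenosine (m6A) at single positions of their transcripts. Members were chosen by name alone: Cul, Fbxl, Fbxo, Fbxw or Rnf followed by a digit. By this rule 93 of the 8262 named genes listed in either library were members, namely 7 cullin, 37 F-box and 49 Rnf genes. A site was a listed position with at least 20 reads in replicate 2, and replicate 1 values were taken wherever the same transcript and position were listed there. This gave 191 of 16212 sites, in 38 of 3919 genes. The other 55 member genes had no position with 20 reads in replicate 2 and are counted below.

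Both libraries were made from day 6 organoids of the Rx:GFP line, labelled wild type (WT) and treated for 6 days with 0.1 µM of a compound the labels call AGN, so this treatment is common to all the data. The line carries a green fluorescent reporter of Rx, the eye-field transcription factor encoded by Rax. Poly(A) RNA was read as native RNA on nanopores with the RNA002 chemistry, 1 flow cell per library. The 2 libraries form 1 group (n = 2), with no untreated or writer-deficient sample to set a background, and nothing in the labels says whether they came from separate cultures. No contrast between conditions exists, and an exact paired permutation over 2 libraries cannot give p under 0.5, so values are described without a test.

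Ubiquitin ligases attach ubiquitin to chosen proteins and so decide which are degraded or rerouted. In cullin-RING ligases a cullin is the scaffold, a small RING protein at one end recruits the charged ubiquitin-conjugating enzyme, and an adaptor with a substrate receptor, such as an F-box protein on Cul1, holds the target at the other end. Many Rnf proteins carry their own RING finger and act without a cullin. In m6A, a methyl group is added to adenosines in a short sequence context by a writer complex whose catalytic subunit is METTL3, the subject of the study.

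All listed positions lie on 4 motifs of 5 bases. They are shown because levels differ so much between them that members can be compared with other genes only motif by motif, and the capital marks the central adenosine of the m6A context.
Motif 1: agAct
Motif 2: ggAca
Motif 3: ggAcc
Motif 4: ggAct
The letters are DNA letters as deposited. Which base of the motif the listed position marks is not stated. Among member sites, 66 were GGACA (34.6%), 54 GGACT (28.3%), 38 AGACT (19.9%) and 33 GGACC (17.3%). The corresponding shares among sites of other genes were 35.6%, 24.1%, 18.1% and 22.2%.

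Member sites were shallow. Their median coverage in replicate 2 was 33 reads (interquartile range 24 to 43) against 36 (26 to 62) at sites of other genes, and 35 member sites (18.3%) in 9 genes reached 50 reads against 33.4% elsewhere. Of the 191 sites, 138 in 36 genes were listed in replicate 1, with a median of 17 reads there, and 53 in 15 genes had at least 20 reads in both. Over all positions the libraries listed 26441 and 50099 positions with median coverages of 10 and 12 reads. Of 10 retinal progenitor markers 9 were listed in both libraries, whereas 5 pluripotency, 3 mesoderm and 3 endoderm markers were listed in neither. Of 4 pigment epithelium markers, 1 was listed in replicate 1 and 3 in replicate 2, at no more than 6 and 14 reads. A gene is listed only from 5 reads at one of the 4 motifs, so listing is not a measure of expression.

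The GGACA sites of the ligase genes carried the highest fractions, with a median of 0.8 in replicate 1 and 0.775 in replicate 2, or 0.788 ± 0.0175 (SD, n = 2). The median fraction of GGACT sites was 0.335 ± 0.0445 (SD, n = 2). That of GGACC sites was 0.278 ± 0.0235 (SD, n = 2), and that of AGACT sites was 0.239 ± 0.0276 (SD, n = 2). GGACA stood above the other motifs by far more than the spread between replicates, while AGACT and GGACC were nearly equal in replicate 1, at 0.258 and 0.261, and further apart in replicate 2, at 0.219 and 0.294. In replicate 2 single AGACT sites ran from 0 to 0.818, and sites of each of the other motifs from 0 to 1.

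Set against all other genes, members were higher at GGACA and GGACT in both libraries. At GGACA the median of other genes was 0.706 in replicate 1 and 0.667 in replicate 2, so members lay 0.0941 and 0.108 above it, 0.101 ± 0.0102 (SD, n = 2). This difference depended on which sites were taken. At the sites with at least 20 reads in both libraries, 18 of them in members, it was -0.00803 ± 0.0567 (SD, n = 2). It was 0.0122 ± 0.0172 with no coverage minimum and 0.124 ± 0.0113 with a minimum of 50 reads in replicate 2 (each SD, n = 2). At GGACT members lay 0.117 and 0.0752 above other genes, 0.0959 ± 0.0293 (SD, n = 2). The difference was 0.162 ± 0.104 with 20 reads in both and 0.169 ± 0.116 with a minimum of 50 reads (each SD, n = 2). With no minimum it was 0.0238 ± 0.0336 (SD, n = 2). At GGACC the difference was 0.0371 ± 0.0371 (SD, n = 2), about the size of the spread between replicates. It was 0.106 ± 0.0800 with 20 reads in both and 0.0069 ± 0.00976 with no minimum (each SD, n = 2). The replicate 1 medians rest on the sites listed there, 25 of 33 in members at GGACC. At these 25 sites the GGACC difference was 0.0109 in replicate 1 and 0.115 in replicate 2, or 0.0628 ± 0.0734 (SD, n = 2). At AGACT its sign changed, with 0.00825 in replicate 1 and -0.0440 in replicate 2. Sites and genes are not replicates, so none of these differences was tested.

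**Figure D1:**
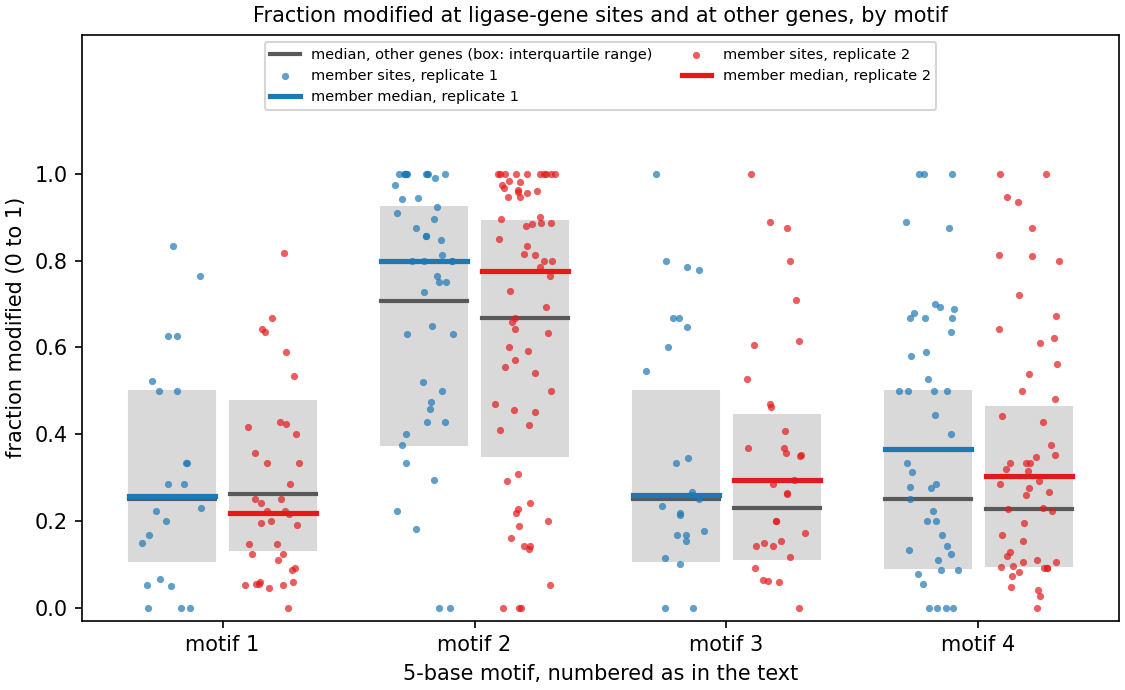
Fraction modified (vertical axis, 0 to 1) at member sites, by motif (1 AGACT, 2 GGACA, 3 GGACC, 4 GGACT) and replicate. Points are sites, coloured lines member medians, grey boxes and lines the interquartile range and median of other genes. Members spread over nearly the whole range in each motif, and their medians lie inside the grey boxes throughout.

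Over all motifs, the share of highly modified sites in members lay near that of all genes. In replicate 2 a fraction of 0.5 or more was listed at 76 of 191 member sites (39.8%), and at 37.5% of sites of all genes. By motif the count was 46 of 66 at GGACA (69.7%, 95% Wilson interval 57.8% to 79.4%) with a background of 64.1%, and 16 of 54 at GGACT (29.6%, 19.1% to 42.8%) with a background of 23.2%. It was 8 of 33 at GGACC (24.2%, 12.8% to 41.0%) with a background of 21.4%, and 6 of 38 at AGACT (15.8%, 7.44% to 30.4%) with a background of 24.1%. The intervals cover counting error only and take sites as independent draws, though sites share genes, transcripts and 1 library. The background also includes the members, so no conclusion is drawn from whether an interval holds it. A fraction of 0.9 or more in both replicates was found at 15 of 138 sites (10.9%, background 8.92%). By motif these were 12 of 47 GGACA sites (25.5%, background 20.1%), 2 of 44 GGACT sites (4.55%, background 3.10%), 1 of 25 GGACC sites (background 2.56%) and 0 of 22 AGACT sites (background 0.497%). The GGACT sites among them are in Cul3 and Rnf10, and the GGACC site is in Rnf122.

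The cullins are the scaffolds, and 4 of the 7 listed had sites. Cul1, the scaffold of the SCF ligases (chromosome 6, 47430332 to 47503073; gene coordinates here and below are those in the tables, which name no build), was the deepest, with 6 sites on transcript ENSMUST00000031697.8 covered by 20 to 51 and 60 to 115 reads. Its mean fraction was 0.364 ± 0.0143 (SD, n = 2). The highest was the GGACT at position 359, above 0.5 in both replicates, at 0.636 with 20 reads and 0.81 with 60 reads. The GGACT at position 2814 gave 0.581 over 49 reads and 0.333 over 114 reads. Its neighbour 10 nt away, the GGACT at position 2824, gave 0.275 over 50 reads and 0.276 over 114 reads. The pair thus stood apart in replicate 1 and lay close in replicate 2. The AGACT at position 555 had 0.0526 and 0.196, and the GGACC at position 2755 had 0.235 and 0.264. The deepest cullin site, the GGACC at position 3001, was steady at 0.346 over 51 reads and 0.369 over 115 reads.

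Cul3, which takes its substrates through BTB-domain receptors (chromosome 1, 80242640 to 80318197), carried 3 GGACT sites within a stretch of 115 nt. At position 2526 the fraction was 1 in both libraries, over 17 and 48 reads. At position 2508, 18 nt upstream, it was 0.7 over 17 reads and 0.621 over 48 reads, and at position 2411 it was 0.5 and 0.353 over the same depths. The order of the 3 sites was the same in both libraries. The lone GGACA of Cul3, at position 3078, had 0.308 over 21 reads in replicate 2 and was not listed in replicate 1, so in replicate 2 the GGACT sites of this gene exceeded its GGACA.

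Cul4a, the scaffold that works with Ddb1 (chromosome 8, 13155621 to 13197940), had 8 sites with 24 to 40 reads in replicate 2. Its 6 GGACA sites split widely: 1 over 26 reads at position 894 and 0.962 over 26 reads at position 765, then 0.409, 0.217, 0.143 and 0.0526 at positions 2951, 1858, 2732 and 318. Only positions 894 and 2732 were listed in replicate 1, with 1 over 5 reads and 0 over 11 reads, the same order. The highest AGACT, at position 2777, reached 0.643 over 40 reads. Cul2, which works with the elongins and Vhl, had 3 sites in replicate 2, at 1, 0.294 and 0.227 over 26 to 29 reads, and none listed in replicate 1. Cul4b, Cul5 and Cul7 were listed at no more than 18, 10 and 14 reads in replicate 2.

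The F-box proteins are substrate receptors of Cul1 ligases, and 10 of 37 listed genes had sites. Fbxo5, also called Emi1, an inhibitor of the anaphase-promoting complex (chromosome 10, 5749160 to 5755600), had the most, 10 sites on transcript ENSMUST00000019907.7 with 24 to 34 and 34 to 51 reads. It held all 10 F-box sites with 20 reads in both libraries. Its mean fraction was 0.342 ± 0.0339 (SD, n = 2), and its 3 GGACA sites were its highest in replicate 2. At position 437 the fraction was 0.65 and 0.731, and at position 632 it was 0.632 and 0.571. At position 543 it was 0.474 (25 reads) and then 0.815 (38 reads), which is the largest difference between replicates among the 53 member sites with 20 reads in both. The 3 GGACT sites were low in both libraries: 0.0556 and 0.0909 at position 331, 0.0870 and 0.167 at position 998, and 0.167 and 0.0488 at position 1716, the deepest F-box site. The AGACT at position 1439 gave 0.522 over 31 reads and 0.25 over 49 reads. Its other AGACT sites gave 0.286 and 0.333 at position 621, and 0.05 and 0.25 at position 879.

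Fbxo11, the receptor for Bcl6, followed with 8 sites at 20 to 23 reads in replicate 2 and at most 7 in replicate 1. All 5 of its GGACA sites had 0.692 to 0.9 in replicate 2, and its 3 AGACT sites 0.0526 to 0.286. An AGACT and a GGACA lay 12 nt apart at positions 3048 and 3060, with 0.286 and 0.9, and another such pair lay 18 nt apart at positions 2924 and 2942, with 0.2 and 0.692. In replicate 1 the same positions gave 0.5 and 1 over 7 reads and 0 and 0.333 over 5 reads, so the GGACA was the higher in each pair and library. Fbxo38 had 8 sites with 20 to 27 reads, at 0.125 to 0.636, none listed in replicate 1; 7 of the 8 lay above the median of their motif.

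Fbxl19, an F-box protein with a CXXC finger that binds CpG islands, had 5 sites. The GGACT at position 2794 was its highest, with 0.889 over 11 reads and 0.935 over 34 reads, and the GGACT sites at 2729 and 2895 had 0.292 and 0.12 in replicate 2 but 0.125 and 0.286 in replicate 1, the opposite order. Fbxl5, the iron-sensing receptor for iron regulatory proteins, had 4 sites with 5 reads each in replicate 1. Its GGACT sites at positions 1496 and 1826 had 0.947 and 0.0909 in replicate 2, over 27 reads each, and 0.667 and 0.25 in replicate 1. Fbxo3 had 4 sites, from 0 at position 1178 to 1 at position 1123 in replicate 2; the former was 0.6 over 5 reads in replicate 1. Fbxw8, which pairs with Cul7, had 3 sites that all lay below the median of their motif in replicate 2, at 0.0417 to 0.241; its AGACT at position 2024 had 0.333 over 16 reads in replicate 1, above that median. Fbxl14, a receptor for the transcription factor Snai1, had 2 sites, also below it in replicate 2, at 0.2 and 0.111 against 0 and 0.222 in replicate 1, while Fbxw5 and Fbxw11 (beta-TrCP2) had 1 site each. These gave 0.2 over 6 reads and 0.316 over 26 reads in Fbxw5, and 0.667 over 8 reads and 0.375 over 20 reads in Fbxw11.

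**Figure D2:**
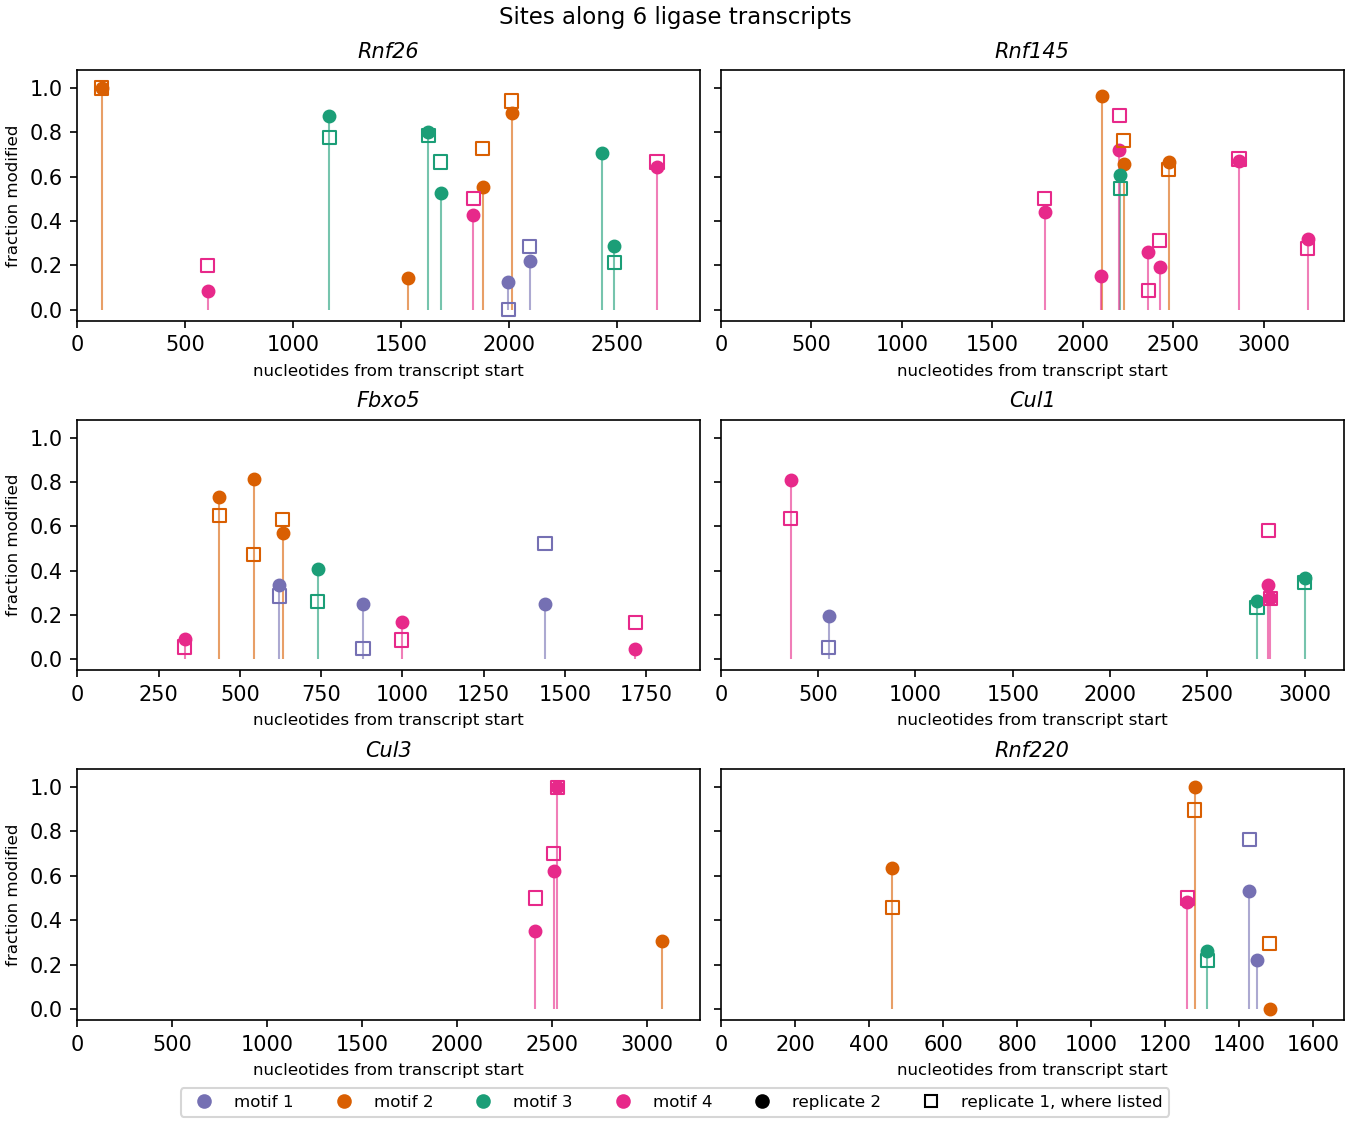
Fraction modified (vertical axis) against distance from the transcript start in nucleotides (horizontal axis) for 6 genes; filled circles are replicate 2, open squares replicate 1 where listed, colours the motifs. Rnf26 and Rnf145 carry 14 and 11 sites, and the replicates lie far apart at position 543 of Fbxo5 (0.474 and 0.815) and close together at position 3001 of Cul1 (0.346 and 0.369).

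The Rnf genes gave 124 of the 191 sites, in 24 of 49 listed genes. Rnf7, also called Rbx2, is the RING subunit that docks on cullins (chromosome 9, 96352990 to 96360728) and had the deepest member site. Its AGACT at position 540 gave 0.148 in each library, over 124 and 248 reads. Its GGACT at position 408 gave 0.526 over 116 reads and 0.347 over 244 reads, a difference of -0.179. The shallower of the libraries was thus the higher at 408, and at 540 the libraries differed by -0.0005.

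Several Rnf ligases sit in the membrane of the endoplasmic reticulum, and these included the member genes with the most sites. Rnf26, which holds vesicles near the nucleus (chromosome 9, 44006928 to 44024814), had 14 sites on transcript ENSMUST00000056328.5 at 26 to 42 reads in replicate 2, and a mean over its 12 sites listed in both of 0.55 ± 0.0197 (SD, n = 2). Only 1 of these sites had 20 reads in both, with a mean of 0.25. It held 4 of the 8 member GGACC sites at 0.5 or more. These lay at position 1166 (0.778 and 0.875 in replicates 1 and 2), 1626 (0.786 and 0.8), 1683 (0.667 and 0.526) and 2429 (0.708, replicate 2 only). Its remaining GGACC, at position 2486, had 0.214 and 0.286. The GGACA at position 114 was at 1 in both libraries over 11 and 26 reads, whereas the GGACA at position 1533 was at 0.143 over 38 reads and not listed in replicate 1. Within 17 nt, the AGACT at position 1995 had 0 and 0.125 and the GGACA at position 2012 had 0.941 and 0.886.

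Rnf145, a sterol-responsive ligase for HMG-CoA reductase (chromosome 11, 44409791 to 44456347), had 11 sites on transcript ENSMUST00000019333.9, 9 of them listed in both libraries with 21 to 33 and 59 to 83 reads. Their mean was 0.512 ± 0.0104 (SD, n = 2), and 7 of the 11 lay above the median of their motif in replicate 2. Its 7 GGACT sites covered most of the range. Position 2202 was the highest, at 0.875 over 23 reads and 0.721 over 66 reads, followed in both libraries by position 2864 (0.68 and 0.672) and position 1791 (0.5 and 0.441). Positions 3243 (0.278 and 0.321), 2426 (0.312 and 0.194) and 2362 (0.087 and 0.26) were lower, in an order that changed between libraries, and position 2102 was listed in replicate 2 alone, at 0.154. Position 2208, a GGACC 6 nt from position 2202, was also high for its motif, at 0.545 and 0.606. Rnf5, another ligase of this membrane, had a GGACA at position 994 with 0.973 over 40 reads and 0.983 over 64 reads, and a GGACC at position 842 with 0.115 and 0.149. Rnf139 (TRC8) had 3 AGACT sites, all below the median of that motif in replicate 2 at 0.0455 to 0.216; the one listed in replicate 1 had 0.625 over 9 reads.

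Among ligases of the nucleus, Rnf2 (Ring1b), the catalytic subunit of Polycomb repressive complex PRC1, had 4 sites with 52 reads each. Its GGACA at position 1334 gave 0.875 over 17 reads and 0.981, and its AGACT at position 1274 gave 0.333 and 0.147. The GGACA at position 2426 and the GGACT at position 1432 had 0.452 and 0.093, in replicate 2 only. Of these Rnf2 sites only position 1334 lay above the median of its motif in replicate 2. Rnf4, which recognises proteins carrying SUMO chains, had 5 sites that repeated closely between libraries. With 17 to 26 reads in replicate 1 and 39 to 46 in replicate 2, they were 0.846 and 0.85 at position 723, 0.944 and 0.947 at 1021, 0.154 and 0.143 at 594, 0.0667 and 0.0556 at 1083, and 0.143 and 0.111 at 2442. Rnf8, which ubiquitinates histones at DNA breaks, had 6 sites at 0.188 to 0.542 in replicate 2 over 21 to 27 reads. Its GGACA at position 1516 had 0.857 over 16 reads in the first library and 0.542 in the second.

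Rnf187, a coactivator of Jun (chromosome 11, 58823114 to 58829742), had the deepest GGACA sites. Position 1792 gave 0.991 over 119 reads and 0.975 over 215 reads, the highest mean of any GGACA with 20 reads in both, and position 969 gave 0.909 over 91 reads and 0.886 over 188 reads. The libraries differed by -0.0158 and -0.0229 at these sites. Rnf10, which ubiquitinates small ribosomal subunits (chromosome 5, 115379471 to 115410957), carried the highest GGACT among sites with 20 reads in both: at position 1903 the fraction was 1 over 21 and 62 reads. The same transcript had 4 GGACA sites, with 0.812 and 0.883 at position 2696, 0.5 and 0.455 at position 2004, 0.222 and 0.241 at position 2792, and 0.136 over 55 reads at position 1352, listed in replicate 2 alone.

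Rnf220, a ligase of neural development (chromosome 4, 117128660 to 117354249), showed the widest pair of same-motif sites among pairs with 20 reads in both. Its GGACA at position 1279 gave 0.897 over 29 reads and 1 over 43 reads, and its GGACA at position 1482 gave 0.294 over 30 reads and 0 over 42 reads. The gap was 0.602 in replicate 1 and 1 in replicate 2. Its GGACC at position 1313 lay near the median of other genes, at 0.217 and 0.263. It also had the highest AGACT with 20 reads in both, at position 1427, with 0.765 and 0.533. The cytosolic ligase Rnf126, which clears mislocalised proteins with Bag6, had the next widest of these pairs, GGACT sites 64 nt apart. Position 1160 gave 0.688 and 0.812, and position 1224 gave 0.133 and 0.0278, over 20 to 21 and 51 reads. In all, 39 pairs of same-motif sites on 1 transcript had 20 reads in both libraries, and the mean fractions differed by 0.5 or more in 6 of them, where the background is 20.6%. These lay in Rnf220, Rnf126, Rnf10 and, 3 times, Rnf145.

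Of the remaining Rnf genes, Rnf167, a ligase of the endosomal and lysosomal membrane, had the highest GGACC with 20 reads in both, 0.647 over 22 reads and 0.889 over 33 reads at position 1505. A GGACC 20 nt upstream of it, at position 1485, had 0.0645 over 34 reads and was not listed in replicate 1. Rnf122 had 7 sites with 21 to 29 reads, from 0 at the GGACA of position 1116, where replicate 1 had 0.375, to 1 at the GGACC of position 812; the latter was at 1 in both libraries, over 12 and 22 reads. Rnf34 had 7 sites, of which the GGACA at position 1507 gave 0.857 over 34 reads and 0.833 over 26 reads. Its other GGACA sites were lower, with 0.52 and 0.5 at position 1399, and 0.471 at position 1567, in replicate 2 only. Rnf34 was the only member gene with sites read more deeply in replicate 1, 3 in number. Rnf13, of the same membranes as Rnf167, had 6 sites. Its AGACT at position 2214 had 0.833 over 8 reads and 0.818 over 20 reads, the highest AGACT of all members in replicate 2. Its other AGACT sites were low, with 0.0588 at position 803, in replicate 2 only, and 0.2 and 0.0526 at position 1171. Rnf11 had 4 sites, with 0 at position 758 in both libraries over 13 and 23 reads, and 0 at position 2513 over 24 reads in replicate 2. The single site of Rnf130, a GGACA at position 137, gave 0.429 over 22 reads and 0.292 over 35 reads. Over the 4 sites of each listed in both libraries, mean fractions were 0.751 ± 0.122 in Rnf166, 0.513 ± 0.0151 in Rnf227 and 0.246 ± 0.0561 in Rnf115 (each SD, n = 2). Rnf144a had 3 sites, at 0.0952 to 1 in replicate 2, and Rnf44 had 5, of which the 3 GGACT sites were at 0.0909 to 0.227.

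Of the 38 genes with sites, 3 (Rnf10, Rnf114 and Rnf44) had sites on more than 1 transcript, which lets the same motif be read in different isoforms. In Rnf114 (chromosome 2, 167334565 to 167358093) a pair of GGACA sites lay at positions 2084 and 2248 of 1 transcript and 2590 and 2754 of another, an equal shift of 506 nt. In replicate 2 the fractions were 0.958 and 0.96 on the first and 1 and 1 on the second, over 25 to 33 reads. All 6 Rnf114 sites exceeded the median of their motif in replicate 2, the only member gene with 3 or more sites of which this was true, though 4 of the 6 are these isoform pairs. Its GGACC at position 2387 gave 0.333 over 20 reads and 0.471 over 27 reads. In Rnf10 the GGACA sites at 2696 and 2792 stood beside sites of that motif at 2702 and 2798 of a second transcript, a shift of 6 nt, with 0.895 and 0 in replicate 2 over 24 and 25 reads, the latter at 0.182 over 16 reads in replicate 1. On both Rnf10 transcripts the upstream site of the pair was the higher. Whether the paired positions are the same place in the genome was not derived. With 1 transcript per gene 186 sites remained.

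**Figure D3:**
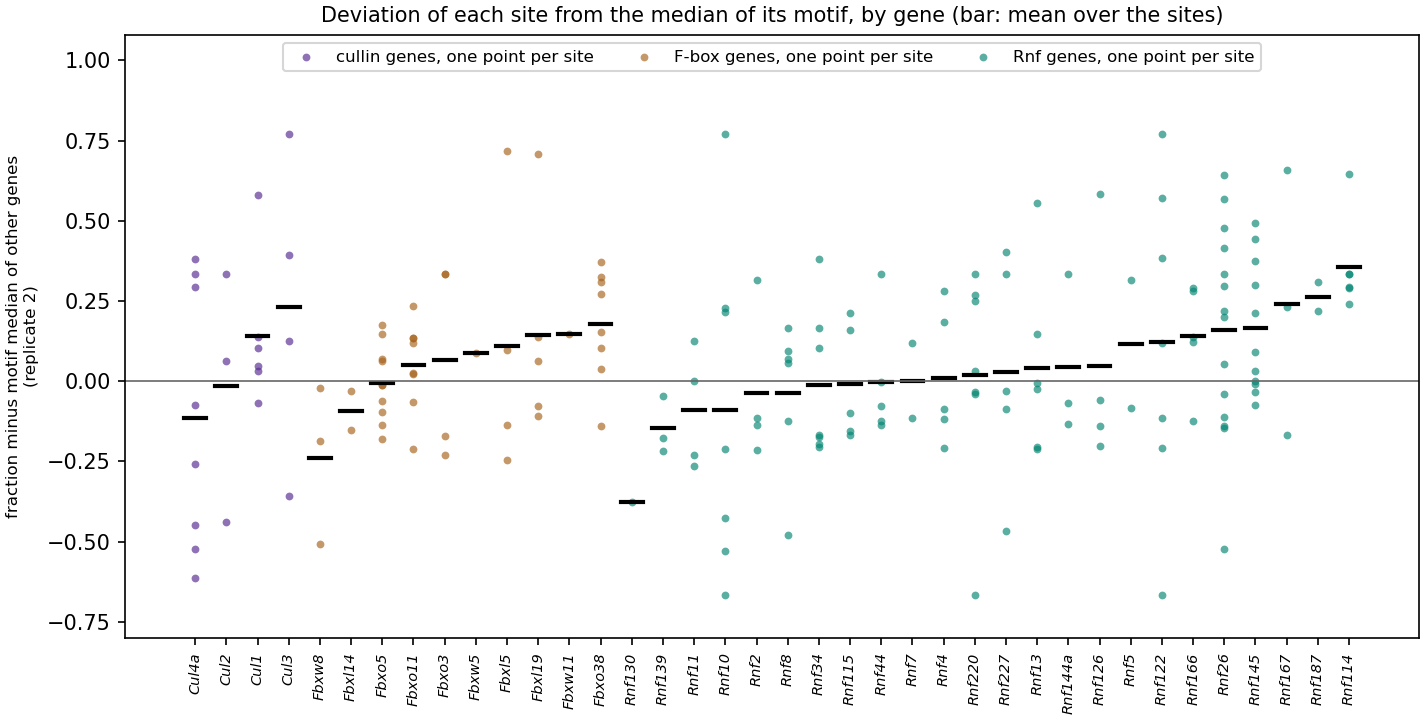
Fraction at each member site in replicate 2 minus the median of other genes at the same motif (vertical axis), for the 38 genes with sites (horizontal axis), by class; bars are means over a gene's sites. Points of most genes fall on both sides of 0, and gene means of those with 3 or more sites run from -0.238 in Fbxw8 to 0.356 in Rnf114.

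Once motif was taken into account, the counts of member genes above and below other genes were near those of all genes. Of 31 genes with 3 or more sites, 19 had a mean above the medians of their motifs in replicate 2, where the background over all such genes is 57.4%. In Rnf114 every site lay above (background 5.18%), and in Fbxw8 and Rnf139 every site lay below (background 5.78%, at or below). Over all motifs the median fraction was 0.417 ± 0.118 in cullins, 0.33 ± 0.0292 in F-box genes and 0.439 ± 0.0859 in Rnf genes (each SD, n = 2). The classes hold GGACA in unequal shares, 42.9%, 28.3% and 35.5%. As deviations from the motif medians the values were 0.157 ± 0.132, 0.0183 ± 0.0456 and 0.0630 ± 0.0440 (each SD, n = 2). Cullins lay above F-box genes in both libraries, with 0.25 against -0.0139 in replicate 1 and 0.0633 against 0.0506 in replicate 2, but the gap in replicate 2 was small and the 11 cullin sites listed in replicate 1 are all of Cul1, Cul3 and Cul4a. Rnf genes, at 0.0941 and 0.0319, overlapped both. Within GGACA the median in replicate 2 was 0.308 in cullins (9 sites), 0.765 in F-box genes (13) and 0.842 in Rnf genes (44); 6 of the 9 cullin sites are of Cul4a.

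The replicates were compared at the 53 sites with 20 reads in both, in 15 genes. Pearson's r was 0.899 and Spearman's rho 0.891 across sites, which share their libraries and genes and are not independent. The median difference, replicate 2 minus replicate 1, was 0.0185, with 29 sites higher, 23 lower and 1 equal. The root mean square difference was 0.129, against 0.0996 at 5168 sites of other genes. A difference above 0.2 was seen at 6 sites (11.3%), where the background is 5.94%. These are positions 543 and 1439 of Fbxo5, 1427 and 1482 of Rnf220, 2814 of Cul1 and 1505 of Rnf167. Over all 138 sites listed in both, 21 (15.2%) differed by more than 0.2, where the background is 15.7%, and the root mean square was 0.158 against 0.153 in other genes. Over this larger set the share in members was close to the background. At the 6 sites with 50 reads in both, in Cul1, Rnf187 and Rnf7, the root mean square was 0.0745, against 0.0658 at 1821 sites of other genes.

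**Figure D4:**
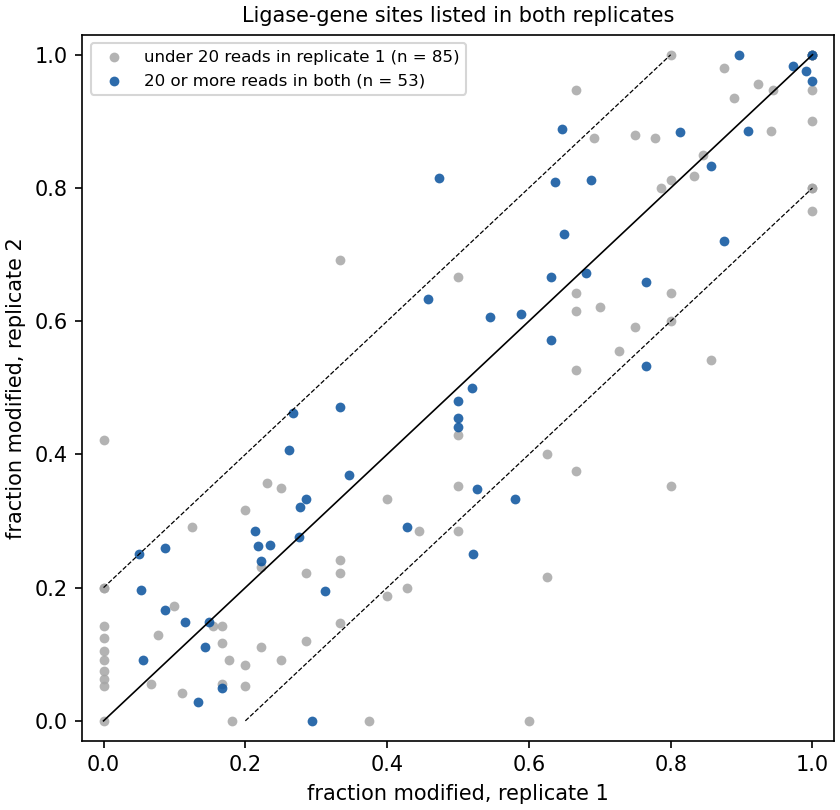
Fraction modified in replicate 2 (vertical axis) against replicate 1 (horizontal axis) at 138 member sites; blue points have at least 20 reads in both, grey points under 20 reads in replicate 1. The solid line marks equality and the dashed lines a difference of 0.2, beyond which lie 6 blue and 15 grey points.

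A further 53 member sites (27.7%) were not listed in replicate 1, against a background of 25.2%. By motif this was 16 of 38 AGACT sites (42.1%, background 31.5%), 19 of 66 GGACA sites (28.8%, background 21.5%), 8 of 33 GGACC sites (24.2%, background 29.0%) and 10 of 54 GGACT sites (18.5%, background 22.7%). Unlisted sites were shallower, with a median of 26 reads in replicate 2 against 36 at listed ones; in other genes these were 29 and 39. Of the 53, 11 lay on transcripts not listed there at all (background 12.3%) and 24 lay outside the stretch of listed positions (background 44.8%). The other 18 lay between listed positions of the same transcript (background 42.9%), 4 of them between neighbours that each had at least 20 reads (background 19.3% of such sites). These were position 1448 of Rnf220 (0.222), 1485 of Rnf167 (0.0645), and 2102 and 2109 of Rnf145 (0.154 and 0.966, with 62 and 63 reads). Conversely, 6 of 59 positions with at least 20 reads in replicate 1 were not listed in replicate 2, where the background is 19.0%, among them position 1796 of Rnf10 with 0.812 over 21 reads. How positions were selected for listing is not stated.

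Partners of the cullins were described from a list of 55 genes, of which 39 were listed in replicate 1, 49 in replicate 2 and 31 had 151 sites. By motif their medians in replicates 1 and 2 were 0.724 and 0.701 at GGACA, and 0.273 and 0.279 at GGACT. They were 0.211 and 0.214 at GGACC, and 0.267 and 0.189 at AGACT. Against other genes the partners were higher at GGACA and GGACT and lower at GGACC in both libraries. At AGACT, where other genes had 0.25 and 0.263, the direction turned between libraries. None of this was tested. Deeply read partners are given first, chosen after their values were seen. Skp1, which links F-box proteins to Cul1, had 1 site, a GGACA at 0.944 over 159 reads and 0.968 over 318 reads. Rbx1, the RING subunit of most cullins, had a GGACA at position 348 with 0.422 over 253 reads and 0.327 over 413 reads. Its GGACA at position 1022 was far higher, at 1 over 17 reads and 0.929 over 36 reads. Ddb1, the Cul4 adaptor, had 6 sites, among them a GGACA with 0.969 and 0.975 at position 1195 and a GGACC with 0.0169 and 0.0212 at position 2762. Nedd8, the modifier that activates cullins, had 1 GGACC with 0.554 over 213 reads and 0.493 over 340 reads.

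The partners with the most sites were the exchange factors Cand2 (11 sites) and Cand1 (10), the Nedd8-activating subunit Uba3 (10) and, with 9 each, the COP9 signalosome subunit Gps1 and the receptors Spop and Dcaf7. The Gps1 sites lie on 3 transcripts, and some may be the same place read in several isoforms. Cand1 was low at most sites, with a mean of 0.245 ± 0.0165 (SD, n = 2) and 3 of 10 sites above the median of their motif; its highest was the GGACA at position 2130, with 0.923 and 0.797. Cand2, with 5 to 14 reads in replicate 1, had a mean of 0.414 ± 0.0867 (SD, n = 2) and 8 of 11 above. Means were 0.464 ± 0.0172 in Gps1, 0.438 ± 0.0682 in Uba3, 0.347 ± 0.153 in Dcaf7 and 0.202 ± 0.0383 in Spop (each SD, n = 2). The last is the receptor of Cul3 ligases for many nuclear proteins. By role, 8 of 9 COP9 signalosome genes, 4 of 5 adaptors, 6 of 11 neddylation genes, 2 of 3 exchange factors and 11 of 27 substrate receptors had sites. Substrate receptors had no more than 64 reads in replicate 2, and F-box members no more than 51.

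Other ubiquitin system genes are given for comparison. At GGACA the median in replicate 2 was 0.704 over 71 sites of ubiquitin-conjugating and deubiquitinating enzymes and 0.684 over 35 sites of proteasome subunits, against 0.775 for the ligase genes. In replicate 1 the GGACA medians were 0.8, 0.689 and 0.8, so the conjugating and deubiquitinating enzymes equalled the ligase genes there. At GGACT the medians in that order were 0.333, 0.291 and 0.367 in replicate 1, and 0.239, 0.397 and 0.304 in replicate 2. At GGACC they were 0.174, 0.206 and 0.261 in replicate 1 and 0.288, 0.168 and 0.294 in replicate 2. At AGACT they were 0.25, 0.314 and 0.258 in replicate 1 and 0.265, 0.357 and 0.219 in replicate 2. These differences were not tested.

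The 55 member genes without a site comprised 3 cullins, 27 F-box and 25 Rnf genes. The highest coverage in replicate 2 ran from 5 reads, as in Rnf6 and Fbxw17, to 19 reads, in Fbxo22 and Fbxo45; Fbxo42 was listed in replicate 1 only. Among them are Rnf20 and Rnf40, which ubiquitinate histone H2B, with at most 18 and 11 reads in replicate 2. Their fractions rest on too few reads to be given one by one.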

How the data were processed

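For each library the authors deposited a table of transcript positions with a coverage, which is a whole-number count of reads, and a fraction modified between 0 and 1. The lowest coverage listed is 5. The base caller, aligner, modification caller, transcript reference and thresholds are not given in the sources used here, and neither is the denominator of the deposited fraction: 39.4% and 36.0% of values times their coverage are whole, within rounding to 4 decimals. No read counts were therefore derived, and no interval was set on a single fraction. The submitters' processing notes name mm10. Of 93 member genes, 5 have a start within 1000 bases of the RefSeq start in GRCm38.p6, so coordinates are printed as deposited only. Transcript sequence and placement in coding or untranslated regions were not analysed here.

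Sites were joined on transcript and exact position, and medians were computed per library with pandas 2.3.3 (Python 3.11.15). Member and other genes were compared as medians within a motif, with the library as the replicate; the computation was tested on simulated data. A gene mean covers its sites listed in both libraries. Genes named by rule were all cullins and the 8 F-box and 10 Rnf genes with the most sites (ties by summed coverage). Not every site of these genes is printed. Sites named by rule were the 3 highest and lowest per motif and the 3 largest replicate differences with 20 reads in both. The deepest site per class, the 3 widest same-motif pairs and the partner genes with the most sites were also named by rule. Other genes and sites were chosen after their values were seen. The members and lists were chosen with earlier results of these data known. Alternatives were the coverage minimum, 20 reads in both libraries, 1 transcript or 1 value per gene, the fraction threshold, leaving out a library and, added after the results were seen, only sites listed in both libraries. The tables of the other deposited kind, named minus, hold 11 and 35 positions, 0 of them in member genes.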

Additional observations from a re-analysis of the deposited data

How the results depend on the processing

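Coverage decided how many ligase sites could be described: there were 694 sites in 92 genes with no minimum, 35 in 9 genes with 50 reads, and 53 in 15 genes with 20 reads in both libraries. Sites at 0.5 or more numbered 289, 14 and 23 under these settings, and 45 with a threshold of 0.8. With no minimum the member medians were 0.268 at AGACT, 0.703 at GGACA and 0.260 at GGACT, and the differences from other genes were 0.0179 at AGACT, where the sign turned, 0.0122 at GGACA, 0.0069 at GGACC and 0.0238 at GGACT. With 50 reads the medians were 0.148 at AGACT, 0.304 at GGACC and 0.420 at GGACT, and the differences -0.116 at AGACT, 0.124 at GGACA, 0.0903 at GGACC and 0.169 at GGACT. With 20 reads in both the medians were 0.670 at GGACA, 0.326 at GGACC and 0.417 at GGACT, and the differences -0.00803 at GGACA, where the sign turned, 0.106 at GGACC and 0.162 at GGACT. With 1 value per gene and motif the medians were 0.713 at GGACA and 0.418 at GGACT, and the differences -0.0587 at AGACT, 0.0663 at GGACA and 0.160 at GGACT. With only sites listed in both, a setting chosen after seeing the data, the GGACC median was 0.305. The F-box median was 0.108 with 50 reads, which is a single site of Fbxo5, and 0.378 after adjustment for motif. The root mean square difference between replicates was 0.1996 with no minimum and 0.0745 with 50 reads in both. Only at GGACC and GGACT did the 2-library mean of the difference from other genes keep its sign under every alternative run. With no minimum its SD exceeded it, with 0.0069 ± 0.00976 at GGACC and 0.0238 ± 0.0336 at GGACT (each SD, n = 2). The sign is therefore not secure there. The causes of these shifts were not tested. Leaving out each replicate in turn gave an AGACT difference of -0.0440 to 0.00825, a GGACA difference of 0.0941 to 0.108, a GGACC difference of 0.0109 to 0.0633 and a GGACT difference of 0.0752 to 0.117; with n = 2 the mean cannot move by more than 1 SD, so this says nothing about stability. Of 33 alternative means of named genes, 24 rested on unchanged sites and so could not move. The other 9 all moved by more than the replicate SD, in Fbxo5, Rnf4, Rnf10, Rnf26, Rnf34 and Rnf114. With 20 reads in both, Rnf4 had 0.127 and Rnf26 0.25. No paired analysis was possible because the samples form 1 group.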
